A study of Mus musculus with 24 samples.

Results

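Usher syndrome joins inherited hearing loss with a slow loss of photoreceptors. The 9 genes described here are Ush1c, Myo7a, Cdh23, Pcdh15, Whrn, Adgrv1, Clrn1, Ush1g and Cib2, taken by their symbols from the 46603 annotated genes of the count tables, and each of the 9 symbols matched 1 Ensembl gene. They were measured in 24 single mouse retinal organoids (MROs), with 6 organoids per timepoint (D20, D22, D25 and D30, in days of culture), from 1 independent experiment. All organoids were grown from the wildtype mouse embryonic stem cell line E14Tg2a by a protocol that cuts each early aggregate into 3 pieces, all were labelled with a control genotype, and water as the solvent was the only addition named in the labels. The groups differed in days in culture, and the sample titles name the D22, D25 and D30 organoids as controls where those of D20 carry no such word, although the genotype label is the same in all. In addition, the organoids of 1 group share a cell line and an experiment, so that the p-values below cover the spread between organoids of 1 experiment.

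In the cochlea, the Usher proteins hold together the stereocilia of hair cells, where cadherin-23 and protocadherin-15 form the tip link that pulls on the transduction channel, and scaffold proteins anchor these links to the actin core through a myosin motor. In the retina, the same proteins are known from the photoreceptor, at the membrane beside the connecting cilium, at the base of the outer segment and at the synapse, and myosin VIIa also acts in the pigment epithelium. Harmonin and whirlin, the scaffolds encoded by Ush1c and Whrn, carry PDZ domains that grip the ends of the membrane proteins.

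Counted reads ranged from 13634846 to 19477108 per organoid, so that 3 counts correspond to between 0.154 and 0.22 CPM, the unit of counts scaled to an equal library size. Levels are given below as normalized CPM, in which TMM also scales the library size, and their errors cover counting error and the spread between organoids. The reads carry no molecular identifiers, so that repeated reads of 1 molecule cannot be recognised by them. Of the 9 genes, 8 averaged 10 or more normalized counts over the organoids and entered the quasi-likelihood test of edgeR. Ush1g averaged 0.43 and was not tested. A gene was called where its Benjamini-Hochberg adjusted p over all 46949 tested features was below 0.01. Marker lists were read for the cell types an organoid can hold. Between D20 and D30, 7 of 8 photoreceptor markers, 4 of 5 Müller glia markers and 5 of 5 bipolar cell markers were called higher, while 6 of 6 progenitor markers and 4 of 5 ganglion cell markers were called lower. The other lists were mixed or not called, with 1 of 4 amacrine cell markers higher, 2 of 3 tested cone markers higher and 1 lower, 2 of 4 tested oligodendrocyte markers higher and 1 lower, 1 of 4 tested pigment epithelium markers lower and 0 of 5 markers of cortex neurons called in either direction. In such bulk libraries, fewer cells of a type and less RNA per cell cannot be told apart.

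Among the 8 tested Usher genes, 4 were called higher at D30 than at D20, namely Pcdh15, Clrn1, Cdh23 and Whrn, and 0 were called lower. Of the annotated genes, 25.1% were called higher and 16.7% lower in the same comparison. The median log2 fold change of the 8 genes was 0.34, against 0.10 over the annotated genes and -0.04 over all tested features. Over the whole course, 5 of the 8 genes differed among the 4 timepoints by the joint test, with Adgrv1 as the fifth, against 43.9% of annotated genes. Each step of the course held 1 call. From D20 to D22 only Pcdh15 was called higher, against 2.56% of annotated genes called higher and 0.763% lower. From D22 to D25 only Clrn1 was called higher, against 7.33% higher and 2.92% lower. From D25 to D30 only Adgrv1 was called higher, against 4.55% higher and 2.83% lower. The steps differ in length, and a call in 1 step and not in the next is not a difference between steps. By the test of the difference itself, 0 of the 8 genes passed between the first and the second step, where 0.0246% of annotated genes did. Of the 8 genes, 2 had an unadjusted p below 0.05 there, and DESeq2 also called 0. Between the second and the third step 0 of the 8 genes passed, where 0.0923% of annotated genes did, with 3 at an unadjusted p below 0.05 and 1 called by DESeq2.

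**Figure D1:**
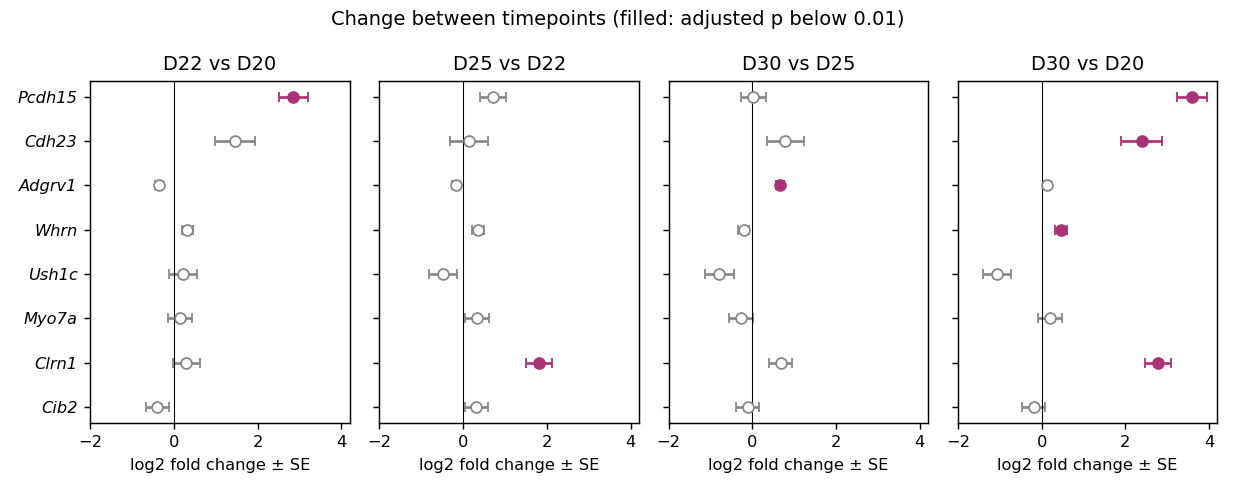
Log2 fold changes of the 8 tested Usher genes with their standard errors (horizontal axis) for D22 against D20, D25 against D22, D30 against D25 and D30 against D20, where filled points passed an adjusted p of 0.01 over all features. Each of the 3 steps holds 1 filled point, Pcdh15 in the first, Clrn1 in the second and Adgrv1 in the third, and the comparison of D30 with D20 holds 4.

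The balance of higher and lower calls over the annotated genes depended on the scaling and on the test. With normalization and tests on annotated genes alone, the share of called annotated genes that were higher moved from 71.5% to 51.3% for D25 against D22, from 61.6% to 50% for D30 against D25 and from 67.5% to 51.7% for D30 against D22. That setting shifted the median of the annotated genes by -0.14 on the log2 scale for D30 against D22. For D22 against D20, DESeq2's test moved the share from 77.0% to 63.0%. No called change of an Usher gene turned its direction under any alternative that was run.

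Promoters are shown for the genes called higher at D30 than at D20 that have a window free of annotated exon, since motifs of photoreceptor factors lie close upstream of many photoreceptor genes. RefSeq's windows of 250 bases upstream of the start (GRCm38.p6) were available for 8 of the 9 genes, in 9 windows, and those of Cdh23, Pcdh15 and Whrn are the ones shown. The 3 sequences run 5′ to 3′ on the strand of the gene, and capitals mark TGCTGA, a core that Nrl and Maf factors bind. Cdh23 lies at chr10:60696491-60696740 on the minus strand, Pcdh15 at chr10:73821617-73821866 on the plus strand and Whrn at chr4:63495992-63496241 on the minus strand.
Cdh23: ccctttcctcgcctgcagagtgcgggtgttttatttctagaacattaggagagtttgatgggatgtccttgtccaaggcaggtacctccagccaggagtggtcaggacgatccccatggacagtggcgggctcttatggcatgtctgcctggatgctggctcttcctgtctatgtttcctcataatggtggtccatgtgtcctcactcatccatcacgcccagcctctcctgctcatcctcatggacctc
Pcdh15: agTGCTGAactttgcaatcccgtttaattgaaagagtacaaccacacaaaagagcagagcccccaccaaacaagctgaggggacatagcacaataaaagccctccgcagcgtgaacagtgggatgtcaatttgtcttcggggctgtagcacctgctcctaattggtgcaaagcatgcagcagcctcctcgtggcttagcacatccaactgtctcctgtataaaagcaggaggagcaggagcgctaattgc
Whrn: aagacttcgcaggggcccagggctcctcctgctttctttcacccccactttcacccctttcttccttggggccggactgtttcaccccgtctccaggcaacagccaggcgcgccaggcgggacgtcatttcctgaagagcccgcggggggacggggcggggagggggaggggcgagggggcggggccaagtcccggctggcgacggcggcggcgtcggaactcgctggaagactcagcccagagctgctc
TGCTGA, searched on both strands, was present in 2 of the 9 windows, those of Pcdh15 and of Myo7a, and in 16.1% of all 32851 RefSeq windows of this length. In Pcdh15 it covered bases -248 to -243 before the start. TAATCC, the core that Crx and Otx2 bind, also searched on both strands, was found in 0 of the 9 windows and in 6.25% of all windows. The motifs do not overlap each other in these windows. The RefSeq start of Pcdh15 lies 722525 bases downstream of the annotated start of the gene, so that the window is 1 of several possible promoters of this gene.

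Pcdh15 and Cdh23 encode the 2 cadherins of the tip link. Pcdh15 (ENSMUSG00000052613, GRCm38 chr10:73099342-74649737, plus strand) was the Usher gene with the steepest change. At D20 the 6 organoids had 3.78, 13.6, 6.26, 10.8, 13.4 and 15.0 normalized CPM. At D22 they had 32.2, 117, 152, 64.8, 68.7 and 20.4 normalized CPM. Every D22 organoid thus lay above every D20 organoid, which held upward for 2.36% of annotated genes, yet the D22 organoids differed 7.42-fold among themselves. At D25 the values were 119, 78.2, 141, 139, 119 and 147 normalized CPM, and at D30 they were 108, 131, 153, 95.4, 126 and 145. The ranges of D25 and D30 overlapped widely, and the lowest of these organoids lay above 4 of the 6 D22 organoids. The mean rose from 10.5 ± 4.5 at D20 to 75.7 ± 50.1 at D22 (SD, n = 6), a log2 fold change of 2.85 (SE 0.34, edgeR adjusted p = 7.95e-06) or 7.22-fold. It was 124 ± 25.4 at D25 and 126 ± 21.8 at D30, and the step from D22 to D25 was 0.71 (SE 0.31, adjusted p = 0.146) and that from D25 to D30 was 0.03 (SE 0.31, adjusted p = 0.984). Against D20, D25 was higher by a log2 fold change of 3.56 (SE 0.35, adjusted p = 4.92e-09) and D30 by 3.59 (SE 0.35, adjusted p = 1.21e-09), which is 12.1-fold.

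The spread of Pcdh15 among organoids also changed with time. Its coefficient of variation was 43.0%, 66.1%, 20.5% and 17.2% from D20 to D30, against a median over the annotated genes of 19.1%, 21.2%, 17.8% and 21.8%. Photoreceptor markers moved with it. The summed level of the 8 photoreceptor markers had medians of 1320, 2350, 4210 and 5080 CPM in the order of the timepoints, with ranges of 927 to 1470, 1740 to 3820, 3510 to 4370 and 3090 to 5450 CPM, and 0 of the 8 markers was at 0 in all organoids of a timepoint. At D22 the 6 organoids stood in the same order by Pcdh15 and by this sum, from 20.4 and 1740 CPM in the lowest to 152 and 3820 CPM in the highest. At D20, D25 and D30 they did not stand in the same order. As a share of the marker sum, Pcdh15 had medians of 0.849%, 2.85%, 3.28% and 2.77%, with ranges of 0.408 to 1.09%, 1.17 to 3.98%, 1.79 to 3.59% and 1.96 to 3.5%. All 6 D22 organoids were thus above all D20 organoids by this share too. The sum was mostly Crx and Pde6b at D20, with means of 628 and 289 CPM. From D20 to D22 the mean of Crx rose from 628 to 878 CPM, while that of Rcvrn rose from 2.89 to 25.6. The share thus depends on the markers that weigh most, and the part of photoreceptor number in the result was not tested. Without D22 replicate 3, the organoid with the highest value at D22, the rise from D22 to D30 was 1.06 on the log2 scale and passed the threshold (adjusted p = 0.00725), while with it the value was 0.74 (SE 0.31, adjusted p = 0.0694).

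**Figure D2:**
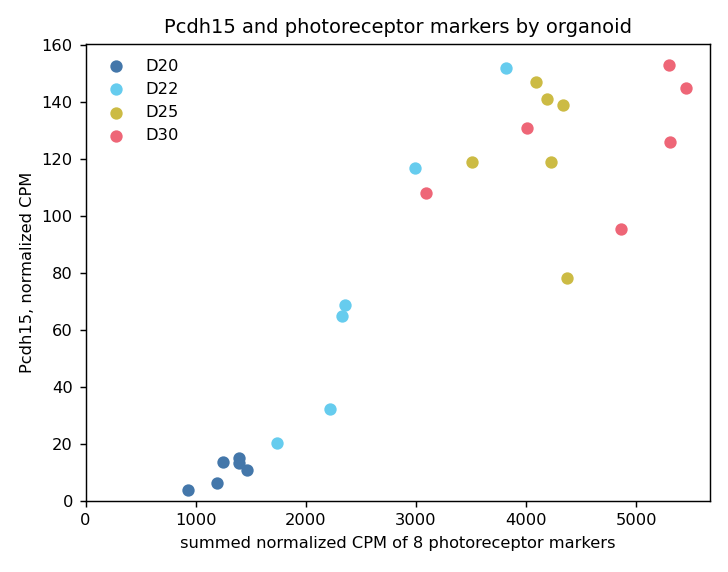
Normalized CPM of Pcdh15 (vertical axis) against the summed normalized CPM of 8 photoreceptor markers (horizontal axis), 1 point per organoid, coloured by timepoint. The 6 D20 organoids lie at the lower left, the D22 organoids spread from 20.4 to 152 CPM of Pcdh15 in the order of their marker sums, and the D25 and D30 organoids lie above 78 CPM.

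Cdh23 (ENSMUSG00000012819, GRCm38 chr10:60302748-60696490, minus strand), the partner of Pcdh15 in the tip link, was near the lower end of the 9 genes. Its D20 organoids had 0.979, 0.672, 0.55, 2.11, 0.925 and 0.576 normalized CPM, and its D30 organoids had 2.63, 6.18, 3.71, 11.1, 4.05 and 3.1. All D30 organoids lay above all D20 organoids, as in 17% of annotated genes. D22 and D25 lay between, from 0.349 to 5.15 (median 2.44) and from 0.732 to 5.23 (median 2.91) normalized CPM, and both overlapped D20 and D30. The mean rose from 0.969 ± 0.587 at D20 to 5.13 ± 3.19 at D30 (SD, n = 6), a log2 fold change of 2.39 (SE 0.48, adjusted p = 0.000195) or 5.25-fold. No single step passed, with 1.46 (SE 0.48, adjusted p = 0.0765) from D20 to D22, 0.15 (SE 0.45, adjusted p = 0.89) from D22 to D25 and 0.78 (SE 0.44, adjusted p = 0.377) from D25 to D30. For D25 against D20 the value of 1.61 (SE 0.48, adjusted p = 0.0136) fell short of the threshold, and it passed with DESeq2 (adjusted p = 0.00305), with no filter on low counts (adjusted p = 0.0068), in a fit of D20 and D25 alone (adjusted p = 0.00935) and without any 1 of D20 replicate 4, D22 replicate 2, D25 replicate 6 and D30 replicate 4. Cdh23 varied among organoids by 60.6%, 60.8%, 54.6% and 62.1% at D20, D22, D25 and D30 (coefficient of variation), so that unlike Pcdh15 its relative spread stayed near its D20 value. Vsir and Gm17455 lie on the opposite strand within the span of Cdh23 and share no exon base with it.

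Adgrv1 encodes the very large adhesion receptor of the ankle links of hair cells and of the fibrous links around the photoreceptor cilium (ENSMUSG00000069170, GRCm38 chr13:81095068-81633154, minus strand). It fell and then rose. The D20 organoids had 382, 307, 285, 295, 283 and 262 normalized CPM, and the D22 organoids had 239, 262, 205, 235, 228 and 248. At D25 the values were 188, 196, 241, 226, 190 and 215, and at D30 they were 274, 324, 401, 301, 332 and 358. The D25 organoids lay below all D20 organoids, as in 9.44% of annotated genes, and below all D30 organoids, as in 4.46% of annotated genes in that direction. The D20 and D22 organoids also did not overlap, although the lowest of D20 and the highest of D22 are both 262 when rounded (2.38% of annotated genes were lower without overlap in this comparison), and the ranges of D20 and D30 overlapped over most of their length. The means were 303 ± 41.8, 236 ± 19.4, 209 ± 21.6 and 332 ± 44.4 normalized CPM (SD, n = 6). D25 was lower than D20 by a log2 fold change of -0.53 (SE 0.10, adjusted p = 9.39e-05), and D30 was higher than D25 by 0.66 (SE 0.10, adjusted p = 2.28e-05) and higher than D22 by 0.49 (SE 0.10, adjusted p = 0.000181). The change from D20 to D22 was -0.36 (SE 0.10, adjusted p = 0.0243), and D30 and D20 differed by 0.13 (SE 0.10, adjusted p = 0.295). A call lower for D25 against D20 together with a call higher for D30 against D25 was made for 16 of the 16253 annotated genes (0.0984%), Adgrv1 among them.

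The difference between the last step and the one before it was 0.84 for Adgrv1 on the log2 scale (SE 0.17, adjusted p = 0.0281). It passed the threshold with DESeq2 (0.86, adjusted p = 0.00222) and without D20 replicate 1 (0.86, adjusted p = 0.00936), an organoid of a timepoint outside this contrast. Müller glia markers moved in the same interval, with a summed level of 5 markers of 399 to 558, 437 to 546, 678 to 906 and 1010 to 3240 CPM in the order of the timepoints (medians 440, 484, 738 and 2040), and 0 of the 5 was at 0 in all organoids of a timepoint. The D30 organoid with the highest Müller glia sum had the lowest Adgrv1 level of that timepoint, 274 CPM, and the organoid with the lowest sum had 358 CPM. At D25 it was the other way round, with 241 CPM of Adgrv1, the highest of that timepoint, at the highest sum and 196 at the lowest. At D20 the 2 values were 295 and 283, and at D22 they were 205 and 239. The Müller glia markers did not peak together at D30. Apoe, Slc1a3 and Glul were highest in the organoid with the highest sum, at 1920, 793 and 394 CPM. Rlbp1 and Abca8a, at 185 and 44.1 CPM, were highest in the organoid with the highest Adgrv1 level, 401 CPM. Unlike the Müller glia sum, the progenitor sum of 6 markers fell over the timepoints, with ranges of 861 to 1320, 474 to 976, 199 to 863 and 280 to 485 CPM (medians 1190, 624, 505 and 316). The part of either in the course of Adgrv1 was not tested.

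**Figure D3:**
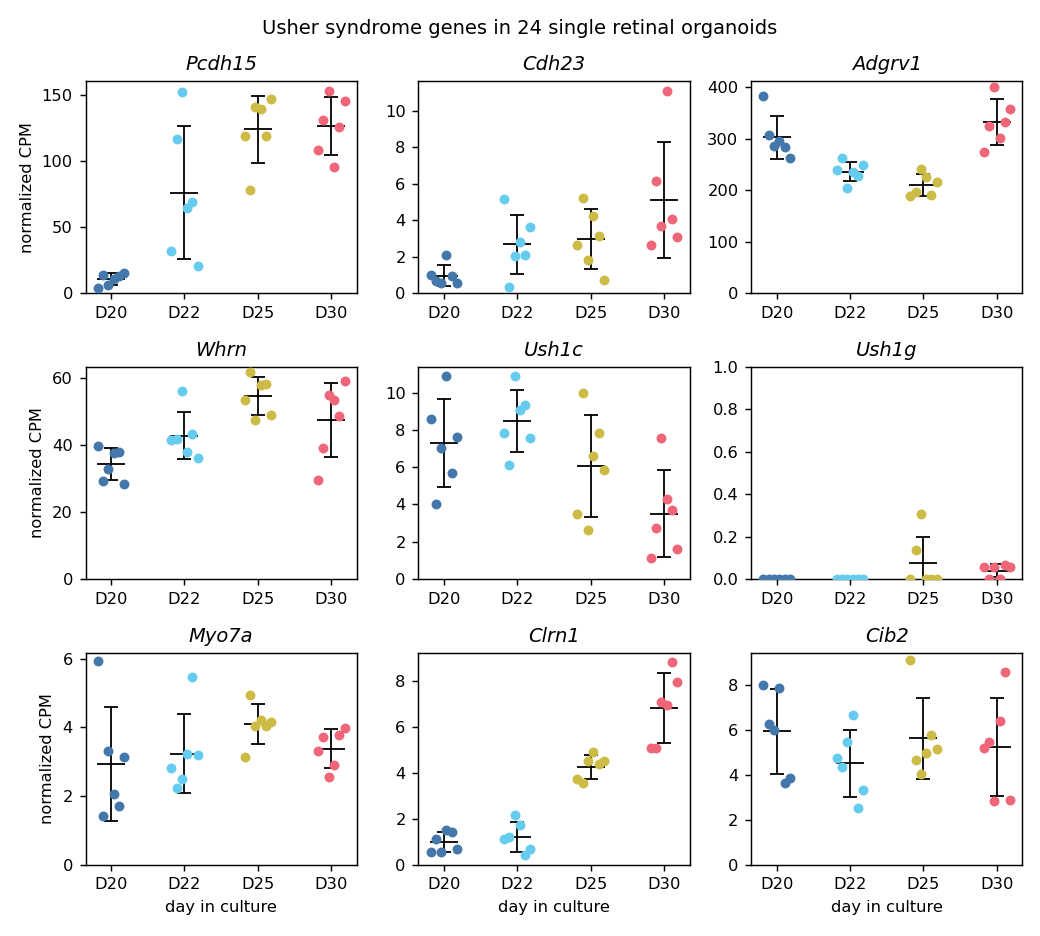
Normalized CPM of each of the 9 Usher genes (vertical axes, each from 0) at D20, D22, D25 and D30, 1 point per organoid, with the mean and SD of 6 organoids as lines. Pcdh15 rises between D20 and D22 with a wide D22 group, Adgrv1 is lowest at D25, Clrn1 steps up at D25, and Ush1g lies at or near 0 throughout.

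The scaffold genes went different ways. Whrn (whirlin, ENSMUSG00000039137, GRCm38 chr4:63414910-63495991, minus strand), which ties Adgrv1 into the complex at the photoreceptor cilium, had 39.6, 29.4, 32.9, 37.7, 37.8 and 28.5 normalized CPM at D20. At D25 it had 53.3, 61.7, 47.6, 57.9, 58.1 and 49.1. Every D25 organoid lay above every D20 organoid, which held upward for 13.1% of annotated genes. At D22 it ranged from 36.1 to 56.0 (median 41.7) and at D30 from 29.5 to 59.2 (median 50.9), and both ranges overlapped that of D20. The log2 fold change of D25 against D20 was 0.67 (SE 0.14, adjusted p = 0.000426), which is 1.59-fold, from a mean of 34.3 ± 4.71 to 54.6 ± 5.57 normalized CPM (SD, n = 6). D30, with a mean of 47.4 ± 11.1, was higher than D20 by 0.47 (SE 0.14, adjusted p = 0.00728). This call was lost on annotated genes alone (0.39, adjusted p = 0.0305), in a fit of D20 and D30 alone (0.47, adjusted p = 0.0232) and without any 1 of D20 replicates 2, 3 and 6 and D30 replicates 3, 4, 5 and 6, where the adjusted p lay between 0.0135 and 0.0246.

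Ush1c (harmonin, ENSMUSG00000030838, GRCm38 chr7:46195350-46238503, minus strand), the scaffold that binds Cdh23, was the only tested Usher gene with a call downward other than Adgrv1. It did not pass the joint test of the 4 timepoints. Its D22 organoids had 7.85, 6.14, 10.9, 9.09, 9.35 and 7.58 normalized CPM and its D30 organoids had 1.14, 2.75, 7.59, 4.27, 3.72 and 1.61. The D30 organoid with 7.59 lay within the D22 range, and the other 5 lay below it. The log2 fold change of D30 against D22 was -1.27 (SE 0.34, adjusted p = 0.00413), from a mean of 8.49 ± 1.67 to 3.51 ± 2.33 normalized CPM (SD, n = 6), and 11.5% of annotated genes were called lower in this comparison. It did not pass the threshold without any 1 of D22 replicate 3 and D30 replicates 1, 2 and 6 (adjusted p between 0.0105 and 0.0114). Against D20, with 4.03 to 10.9 normalized CPM (median 7.32), the value at D30 was -1.06 (SE 0.34, adjusted p = 0.0138), and it passed with DESeq2 (adjusted p = 0.0088), on annotated genes alone (-1.15, adjusted p = 0.00818) and without D30 replicate 3 (-1.44, adjusted p = 0.000902) or D20 replicate 2. At D25 the organoids had from 2.63 to 10 normalized CPM (median 6.22). The relative spread of Ush1c at D30 was 66.2%, higher than that of 95.1% of annotated genes. At D30 the organoid with the highest progenitor sum, 485 CPM, had the lowest Ush1c level, 1.14, and the organoid with the lowest sum, 280 CPM, had the highest, 7.59. At D25, too, Ush1c was at its lowest of 2.63 where the progenitor sum was highest at 863 CPM and at its highest of 10 where that sum was lowest at 199 CPM. At D20 the organoids with the highest and the lowest progenitor sum had 7.62 and 10.9 CPM of Ush1c. At D22 the order was the other one, with 9.35 at the highest sum, 976 CPM, and 7.85 at the lowest, 474 CPM. The part of progenitor cells in the Ush1c level was not tested. Ush1c shares 120 exon bases (3.118% of its exon length) with Gm9860 on the opposite strand.

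Ush1g (Sans, ENSMUSG00000045288, GRCm38 chr11:115315192-115322041, minus strand), a scaffold that joins harmonin and myosin VIIa, was barely detected. It had 0 counts in every organoid of D20 and D22, which allows a level of up to 0.22 CPM in an organoid. At D25 it had 7 counts in all, 2 in 1 organoid and 5 in another, and at D30 it had 4 counts, 1 in each of 4 organoids. A difference between timepoints was not detectable at this depth. Markers of hair cells, the cell type in which the 9 genes are best known, were low. The summed level of 5 hair cell markers was between 0.14 and 5.94 CPM in every organoid, with medians of 1.95, 0.553, 1.51 and 2.98 CPM at D20, D22, D25 and D30. Ocm was at 0 in all 24 organoids, and Gfi1 at 0 at D20 and D30. Only Slc17a8 passed the filter, and it was not called in D30 against D20 (log2 fold change 2.31). In the D30 organoid with the highest sum, 5.94 CPM, Slc17a8 alone had 5.82 CPM, so that this sum was mostly Slc17a8.

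Myo7a (ENSMUSG00000030761, GRCm38 chr7:98051060-98119524, minus strand) encodes the myosin motor of the complex, which also moves pigment granules in the pigment epithelium. It did not pass the test in any comparison, nor in the joint test (adjusted p = 0.518). The organoids ranged from 1.41 to 5.94 normalized CPM at D20, from 2.23 to 5.47 at D22, from 3.13 to 4.95 at D25 and from 2.55 to 3.99 at D30, with medians of 2.59, 3.01, 4.09 and 3.52. All 4 ranges overlapped. D30 against D20 gave 0.21 on the log2 scale (SE 0.28, adjusted p = 0.601). Its relative spread was 56.9% at D20 and 35.8% at D22, and 14.2% at D25 and 16.7% at D30. The summed level of 6 pigment epithelium markers ranged from 118 to 221 CPM at D20, 84.0 to 229 at D22, 44.2 to 185 at D25 and 13.6 to 102 at D30. This sum was mostly Dct, which fell from a mean of 151 to 29.5 normalized CPM between D20 and D30 (log2 fold change -2.35, SE 0.30, adjusted p = 2.09e-07), while the means of Tyr, Tyrp1 and Pmel were 3.21, 3.14 and 2.48 at D20 and 6.43, 13.9 and 7.25 at D30, and none of these 3 passed the test (adjusted p = 0.352, 0.032 and 0.19). The D20 organoid with the highest Myo7a level, 5.94, also had the highest pigment sum of that timepoint, 221 CPM, and at D25 the highest organoids by both measures were again the same, with 4.95 and 185 CPM. At D22 and D30 they were not the same. The D22 organoid with the highest Myo7a level, 5.47, had the highest Tyr and Tyrp1 of that timepoint, 6.98 and 5.97 CPM. Dct and Pmel, at 216 and 4.26 CPM, were highest in the D22 organoid with the highest sum. The part of pigmented cells in the Myo7a level was not tested.

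Clrn1 (clarin-1, ENSMUSG00000043850, GRCm38 chr3:58844028-58885340, minus strand) encodes a small membrane protein with 4 membrane-spanning segments, known from hair cells and the retina. It was low at D20 and D22 and rose at D25. The D22 organoids had 1.1, 1.19, 2.16, 1.71, 0.432 and 0.665 normalized CPM, close to the range of 0.55 to 1.52 at D20. At D25 the values were 3.71, 3.56, 4.52, 4.92, 4.4 and 4.51, and at D30 they were 5.08, 5.08, 7.07, 6.95, 8.81 and 7.93. The ranges of D22 and D25 did not overlap (as in 7.11% of annotated genes upward), nor did those of D25 and D30 (as in 4.46%). The log2 fold change from D22 to D25 was 1.81 (SE 0.31, adjusted p = 0.000213), or 3.51-fold. The next one, from D25 to D30, was 0.67 (SE 0.28) with an adjusted p of 0.18, although the ranges did not overlap. D30 was higher than D20 by 2.78 (SE 0.31, adjusted p = 2.39e-08), or 6.89-fold, and higher than D22 by 2.49 (SE 0.31, adjusted p = 2.38e-07). Means were 0.983 ± 0.436, 1.21 ± 0.643, 4.27 ± 0.528 and 6.82 ± 1.51 normalized CPM (SD, n = 6), and the relative spread was 44.3% and 53.2% at D20 and D22 and 12.4% and 22.1% at D25 and D30. As a share of the photoreceptor marker sum, Clrn1 had medians of 0.0758%, 0.0447%, 0.107% and 0.144% from D20 to D30, with ranges of 0.0183 to 0.0734% at D22 and 0.0815 to 0.113% at D25, so that D22 and D25 did not overlap on this scale either. This share, too, depends on the markers that weigh most. From D22 to D25 the mean of Crx rose from 878 to 985 CPM, while that of Rcvrn rose from 25.6 to 171. The part of photoreceptor number in the Clrn1 level was not tested.

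Pcdh15 and Clrn1, both called higher at D30 than at D20, were set side by side after their courses were seen, as a description. Pcdh15 had a log2 fold change of 2.85 from D20 to D22, where Clrn1 had 0.30 (SE 0.33, adjusted p = 0.7). From D22 to D25 Clrn1 had 1.81 and Pcdh15 had 0.71. Within each gene, the second step minus the first was -2.14 for Pcdh15 (SE 0.53, adjusted p = 0.0649) and 1.51 for Clrn1 (SE 0.56, adjusted p = 0.228), and neither passed the threshold. With no filter on low counts the value of Pcdh15 was -2.11 and passed (adjusted p = 0.00995). The difference between the 2 genes was not tested.

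Cib2 (ENSMUSG00000037493, GRCm38 chr9:54544794-54560218, minus strand) encodes a calcium- and integrin-binding protein that belongs to the transduction complex of hair cells. It did not pass the test in any comparison. In the order of the timepoints its medians were 6.12, 4.52, 5.05 and 5.32 normalized CPM, and its ranges, 3.63 to 7.97, 2.52 to 6.63, 4.03 to 9.09 and 2.84 to 8.55, all overlapped. D30 and D20 differed by -0.19 on the log2 scale (SE 0.28, adjusted p = 0.641). Cib2 shares 227 exon bases, or 15.84% of its exon length, with Sh2d7 on the opposite strand, and Sh2d7 itself had a median count of 3. The libraries keep the strand, but the strand setting of the counting is not given in the sources used here, so that reads from such shared bases cannot be told apart.

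The remaining comparisons added no further gene to those called. For D25 against D20, 3 of the 8 genes were called higher (Pcdh15, Clrn1 and Whrn) and 1 lower (Adgrv1), against 14.8% and 10.4% of annotated genes. For D30 against D22, 2 were called higher (Clrn1 and Adgrv1) and 1 lower (Ush1c), against 24% and 11.5%. In that comparison 2 of the 8 genes were higher without overlap, against 14.4% of annotated genes. The median log2 fold change of the 8 genes was 0.57 for D25 against D20, where that of the annotated genes was 0.05, and 0.35 for D30 against D22, where it was 0.14.

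Levels can be compared between genes only per length, and the order then depends on the length that is used. On the scale of normalized CPM per kilobase of exon, Adgrv1 was the highest of the 9 genes at each of the 4 timepoints, with 12.2 ± 1.68, 9.5, 8.41 and 13.3 ± 1.79 at D20, D22, D25 and D30 (mean, with SD over 6 organoids for the first and last). Whrn came next, with 4.68, 5.84, 7.44 and 6.46 in the same order. At D25 the ranges of Adgrv1 and Whrn overlapped, while at the other 3 timepoints they did not. Pcdh15 moved from the fifth place at D20, with 0.44 ± 0.189, to the third place from D22 on, with 3.19, 5.21 and 5.31 ± 0.915. It overlapped Whrn at D22 and D30 but not at D25, and it overlapped Cib2 at each of these 3 timepoints. Cib2 had 4.13 at D20 and 3.64 at D30, and Ush1c had 1.9 and 0.913. Clrn1 moved from 0.255 at D20, below Myo7a with 0.341 and overlapping it, to 1.77 at D30, where it stood above Ush1c with overlap. Cdh23 had 0.0572 at D20 and 0.303 at D30 and was the lowest tested gene at each timepoint. It lay below its neighbour in the order without overlap at D20 and D25, and with overlap at D22 and D30. Of the summed level per length of the 9 genes, Adgrv1 made up 50.8%, 38.4%, 29.7% and 41.4% in the order of the timepoints, and Pcdh15 made up 1.83%, 12.9%, 18.4% and 16.5%. Where the length of the longest coding transcript was used in place of all exons, the order changed at D25 and D30. At D25 Pcdh15 then stood highest with 15.7, followed by Whrn with 13.5 and Adgrv1 with 10.8. At D30 Pcdh15 stood at 16 and Whrn at 11.7, both below Adgrv1 at 17.1, and Cdh23 at 0.463 stood just above Myo7a at 0.45. At D20 and D22 the order of the 9 genes was the same with either length.

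**Figure D4:**
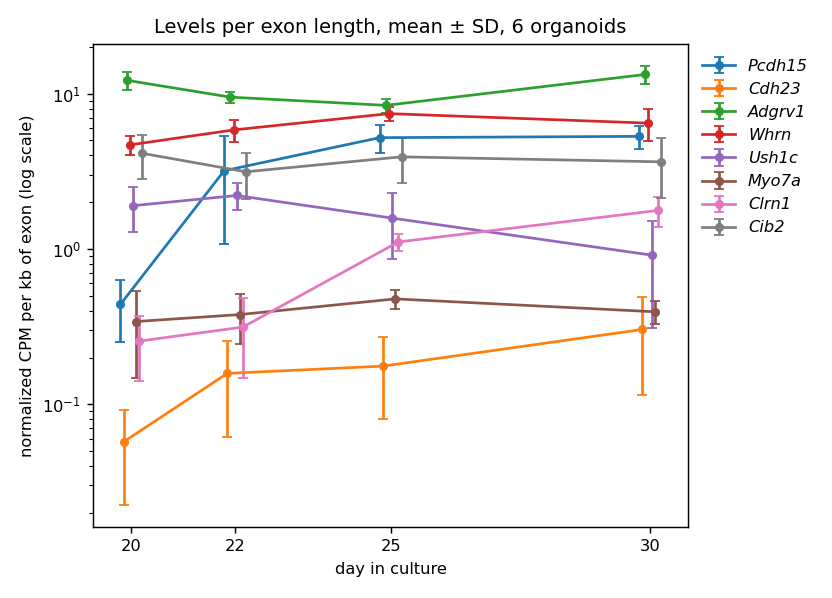
Mean normalized CPM per kilobase of exon (vertical axis, log scale) of the 8 tested Usher genes against the day in culture (horizontal axis), with bars for the SD of 6 organoids. With this length Adgrv1 is the top line throughout, Pcdh15 climbs from 0.44 at D20 to 5.31 at D30, and Cdh23 is the bottom line.

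The genes most like each Usher gene were sought among 10830 annotated genes averaging 100 or more normalized counts, by Pearson's r of log2 normalized CPM over the 24 organoids, which share the course of time and 1 experiment. For Pcdh15 they were Slc1a1 (r = 0.984), Nt5e (r = 0.979) and Hook3 (r = 0.975), and with deviations from the timepoint means r was 0.898, 0.877 and 0.894. Slc1a1 encodes a glutamate transporter and Nt5e the surface enzyme CD73, a known surface marker of young rods. For Clrn1 the highest values belonged to Atp8a2 (r = 0.953), a phospholipid flippase of photoreceptor discs, Ndufv1 (r = 0.952), a subunit of respiratory complex I, and Dnm1 (r = 0.95), the neuronal dynamin. Their r within timepoints was 0.664, 0.663 and 0.607. For Whrn they were Ncoa2 (r = 0.889), Mllt6 (r = 0.887) and Hsbp1l1 (r = 0.881). For Cdh23 they were Tnfaip3 (r = 0.87), Bhlhe41 (r = 0.861) and Ier3 (r = 0.842), which encode an inhibitor of NF-kappaB signalling, a circadian repressor and an early response protein. For Adgrv1 they were D16Ertd472e (r = 0.832), Hadh (r = 0.813) and Gpc3 (r = 0.795). For Ush1c, Rgs11 (r = 0.809), Gm25791 (r = 0.794) and Vipr2 (r = 0.787) were closest. Cib2 came closest to Gnas (r = 0.809), Slc38a7 (r = 0.735) and Cacna1b (r = 0.732), and Myo7a to Uggt1 (r = 0.652), Tnk2 (r = 0.635) and Fntb (r = 0.604). Between Usher genes the highest value was that of Pcdh15 and Clrn1 (r = 0.767, and 0.553 within timepoints), followed by Pcdh15 and Whrn (0.654, and 0.134 within timepoints), and the lowest that of Ush1c and Clrn1 (-0.541, and 0.087 within timepoints). Pcdh15 and Cdh23, which form 1 link, had 0.459 over the 24 organoids and -0.479 within timepoints.

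Further genes were described in 3 lists, of Usher protein partners and bundle proteins, of brush border genes and paralogues, and of other syndromes. Of 12 partners and bundle proteins, 8 were tested, and 5 were called higher and 1 lower at D30 against D20 (25.1% and 16.7% of annotated genes), with a median log2 fold change of 0.77 (0.10 over the annotated genes). Eps8, an actin-capping protein of stereocilia tips, had 9.08 to 15.2 normalized CPM at D20 and 34.5 to 57.6 at D30 (2.00, SE 0.17, adjusted p = 9.77e-11). These ranges did not overlap, as in 17% of annotated genes upward. Tmie, a subunit of the transduction channel, rose by 3.25 (SE 0.86, adjusted p = 0.00334) from a mean of 0.199 normalized CPM, near the level of 3 counts, and its D20 and D30 ranges overlapped (0 to 0.66 and 0.111 to 5.2). Myrip, which links myosin VIIa to Rab27a on vesicles, rose by 1.21 (SE 0.33, adjusted p = 0.00397). The gene called lower was Espn, an actin-bundling protein of stereocilia, which fell by 2.02 on the log2 scale (SE 0.35, adjusted p = 2.5e-05), from 25.0 to 55.1 normalized CPM at D20 to 3.37 to 22.0 at D30. A list of 8 genes held members of the intestinal brush border complex and of the clarin family, and the photoreceptor cadherin Cdhr1. Of these 8 genes, 2 were tested, with Calml4 as the only brush border gene, and both were called higher. These were Calml4, a calmodulin-like light chain (4.11, SE 0.68, adjusted p = 1.33e-05), and Cdhr1, a cadherin of photoreceptor discs (1.11, SE 0.10, adjusted p = 1.6e-10). The mean of Calml4 went from 0.41 to 7.14 normalized CPM, and its D20 and D30 ranges overlapped (0 to 1.17 and 1.03 to 16.5). Cdhr1 had 163 to 189 normalized CPM at D20 and 269 to 441 at D30. The other 6 lay below the filter. Of 5 genes of other syndromes with joint loss of sight and hearing, Arsg, a lysosomal sulfatase (1.58, SE 0.25, adjusted p = 5.58e-06), and Abhd12, a lipid hydrolase (1.57, SE 0.15, adjusted p = 9.27e-10), were called higher, and Hars, Cep250 and Cep78 had log2 fold changes of 0.40, 0.32 and -0.35 with adjusted p-values of 0.0104, 0.0205 and 0.0294. The median of these 5 was 0.40.

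**Figure D5:**
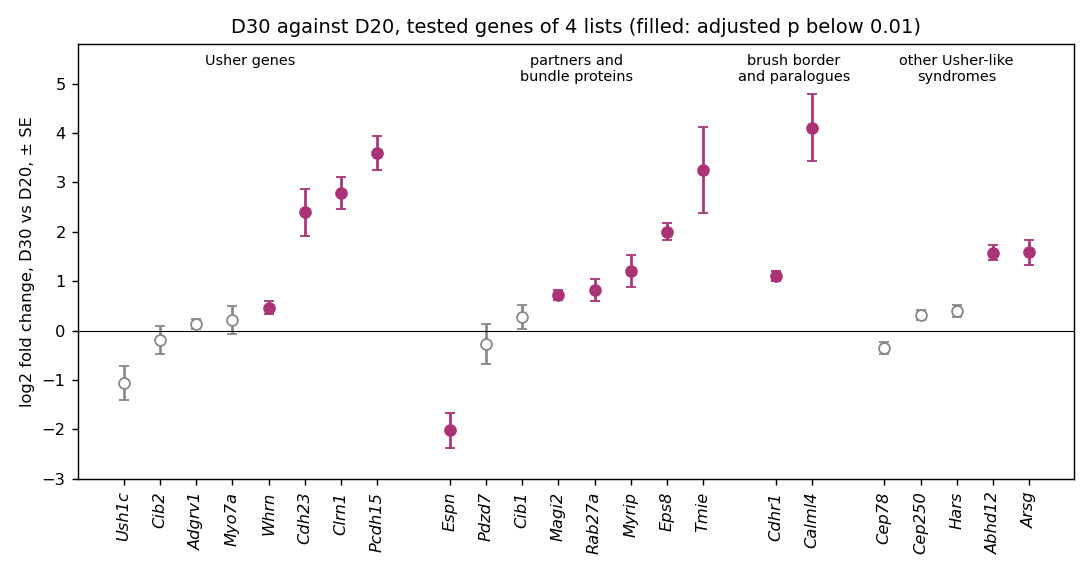
Log2 fold changes of D30 against D20 with standard errors (vertical axis) for the tested genes of 4 lists, the Usher genes, their partners and bundle proteins, brush border genes and paralogues, and genes of other Usher-like syndromes, where filled points passed an adjusted p of 0.01. Called genes lie above 0 in all 4 lists, and Espn at -2.02 is the only filled point below 0.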

How the data were processed

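RNA libraries of 24 single MROs were analysed. The authors depleted ribosomal RNA, made strand-specific libraries, trimmed single-end reads with cutadapt (version 1.5), aligned them to GRCm38/mm10 with HISAT2, assembled transcripts with StringTie (version 1.3.3) and counted reads with HTSeq (version 0.6.1). The deposited values are raw counts for 126602 features, 46603 of them annotated genes and the rest assembled loci. Reads with several alignments were not counted by the authors, which lowers genes with near-identical copies. Groups and replicate numbers came from the labels, and a number only names an organoid.

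The 46949 features (16253 annotated genes) at or above a mean of 10 normalized counts were fitted together, over all organoids and without covariates, with edgeR (version 4.0.16, TMM, quasi-likelihood test) in R (version 4.3.3). P-values were adjusted by Benjamini-Hochberg over all tested features, with a threshold of 0.01, and SE is the log2 fold change divided by the root of F. The common biological coefficient of variation was 0.3846. No pair of the 60 within a timepoint was within sampling noise (lowest chi-square per degree of freedom 6.348). Symbols, exons and coordinates came from GENCODE (GRCm38), with 46005 identifiers matched, and promoters from RefSeq (GRCm38.p6).

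The Usher genes were always named. From the other lists, up to 3 genes per direction past the threshold for D30 against D20 could be named, and per Usher gene the 3 annotated genes of highest r. Hars, Cep250, Cep78, Slc17a8, Ocm and Gfi1 were named after their values were seen. The members and lists were chosen with earlier results of these data known. The scripts were tested on simulated counts. The alternatives were DESeq2 (version 1.42.0), its size factors, no filter, filterByExpr, annotated genes only, a replicate block, fits of the compared timepoints alone, the omission of each organoid, another transcript length and other correlations. A planned reading of protein ends was not run.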

Additional observations from a re-analysis of the deposited data

Results flagged for a closer look

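In 5 of 34 sets of 6 organoids (9 genes at 4 timepoints, without Ush1g at D20 and D22, where all organoids had 0), 1 organoid stood far from the other 5 beyond Dixon's 95% critical value. Chance alone gives about 1 in 20 where values are normally distributed. The ratio was taken on normalized CPM without logs, and all 5 organoids were the highest of their set. An excess over chance can therefore not be read from this number. For Myo7a at D22, replicate 5 had 5.47 normalized CPM and the others 2.23 to 3.21 (Dixon's ratio 0.697). For Cdh23 at D20, replicate 4 had 2.11 normalized CPM and the others 0.55 to 0.979 (Dixon's ratio 0.725). Without this organoid the Cdh23 value for D25 against D20 passed the threshold. For Whrn at D22, replicate 3 had 56.0 normalized CPM and the others 36.1 to 43.4 (Dixon's ratio 0.635), and this organoid also had the highest Pcdh15 level of its timepoint. For Adgrv1 at D20, replicate 1 had 382 normalized CPM and the others 262 to 307 (Dixon's ratio 0.627), and the fall of Adgrv1 to D25 remained called without it. For Cib2 at D25, replicate 1 had 9.09 normalized CPM and the others 4.03 to 5.76 (Dixon's ratio 0.657). Why these organoids differed was not tested.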

How the results depend on the processing

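No called fold change of an Usher gene reversed its direction under the alternatives run, while the order of the genes per length changed. Among the values of single Usher genes, 421 kept their side of the threshold, 8 gained a call and 3 lost one. With single organoids left out, 1517 kept their side, 8 gained a call and 11 lost one. Values without a call could change sign within these counts. Myo7a for D22 against D20, for instance, ranged from -0.08 to 0.47 on the log2 scale with single organoids left out. On annotated genes alone, the number of features called was 7623 for the joint test, 4673 for D25 against D20, 7311 for D30 against D20 and 6171 for D30 against D22, where only annotated genes were tested. DESeq2 called 1605 features for D22 against D20. For the second step minus the first, where edgeR called 13 features, DESeq2 called 175, no filter gave 86, filterByExpr 3, annotated genes alone 2 and the replicate block 0, and with no filter 1 Usher gene, Pcdh15, was called. For the third step minus the second, with 21 features, DESeq2 called 65, no filter gave 39 and annotated genes alone 5, and DESeq2 called 1 Usher gene, Adgrv1. The cause of these shifts was not tested. Leaving out 1 organoid at a time, features called ranged from 472 to 1324 for D22 against D20 (894 with all), from 1561 to 2840 for D25 against D22, from 0 to 26 for the second step minus the first and from 5 to 40 for the third minus the second, where Usher genes called ranged from 0 to 1. With the length of the longest coding transcript, levels per kilobase from D20 to D30 were 1.33, 9.61, 15.7 and 16 for Pcdh15, 8.48, 10.6, 13.5 and 11.7 for Whrn and 15.6, 12.2, 10.8 and 17.1 for Adgrv1, with 1.38 and 2.21 for Clrn1 at D25 and D30 and 2.76 for Ush1c at D22. Of the 3 genes most like each Usher gene, deviations from the timepoint means kept 0 for Ush1c, Myo7a, Cdh23, Pcdh15, Whrn and Clrn1 and 1 for Adgrv1 and Cib2, and Spearman's rho kept 0 for Ush1c, Myo7a and Clrn1 and 1 for Pcdh15 and Cib2.

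Equal replicate numbers did not pair the organoids. Over 36 pairs the correlation of deviations lay between -0.0833 and 0.214, 1 pair exceeded 0.1, and 0 organoids correlated best with their own number. With the replicate block, Whrn for D30 against D20 was not called (0.46, adjusted p = 0.013) and Ush1c was (-1.17, adjusted p = 0.00984). The counts of Clrn1, Cdh23, Myo7a and Cib2 limit their precision, and Ush1g was too low to test.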
